A study of Mus musculus with 11 samples.

Results

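The genes described here are those whose products build, cap, assemble or modify the proteasome. They were taken by name: a protein-coding gene of the mouse annotation was a member if its symbol began with Psm, a letter from a to g and a number. This gave 50 of 22219 protein-coding genes, and the other 22169 served as the comparison. PU.1 occupancy was measured at the transcription start site (TSS) of each, as the number of ChIP-Seq reads in the 500 bp around it, after each read had been moved toward the middle of its fragment. The members were sorted by role into 14 subunits of the core particle, 3 of the immunoproteasome, 2 tissue-restricted core subunits, 9 of the base, 8 of the lid, 5 activators and inhibitors, 7 assembly chaperones and 2 genes that share the name pattern only.

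ChIP-Seq recovers the DNA bound by a protein with an antibody and counts its fragments by sequencing. Here PU.1 was immunoprecipitated with the T-21 antibody from 2 cell types. MEL cells are murine erythroleukemia cells, here 1 clone that carries a stable fusion of Gata-1 to ER, the estrogen receptor, and was kept in puromycin, and ES-EP are erythroid progenitors that were grown from ES cells with SCF, dexamethasone, hIGF-1 and Epogen. The study used duplicate chromatin preparations, and the titles of the PU.1 libraries carry a letter (A or B) and a digit. The letters were read here as 2 preparations of each cell type, and the digits as 2 libraries of each, which were summed. The titles themselves do not say this. There was 1 input library of MEL cells and 2 of ES-EP, and no library of a control antibody was analysed here. The preparations held between 5697937 and 7095855 reads and the inputs 4278560 (MEL) and 7488885 (ES-EP).

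The proteasome is the protease that degrades proteins tagged with ubiquitin, and every growing cell needs it. Its barrel, the core particle, is made of outer alpha rings (Psma genes) and inner beta rings (Psmb genes), of which a few beta subunits cut the substrate. The regulatory particle sits on its end: the base holds the ATPases (Psmc genes) that unfold the substrate and a few Psmd subunits, and the lid, made of other Psmd subunits, removes the ubiquitin chain. Some further Psmd genes encode chaperones of assembly. In immune cells, or after interferon, Psmb8, Psmb9 and Psmb10 replace the cutting subunits and form the immunoproteasome, which shapes the peptides shown on MHC class I. PU.1 is an Ets family factor of blood cells, and Ets factors recognise a GGAA core in DNA.

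The DNA under the strongest members is shown first. At 8 members the ChIP reads were called above input in both cell types, as defined below. Their sequences are printed 5′ to 3′ on the strand of the gene, from the assembly NCBIM37 (mm9), with every GGAA core, or TTCC where the core lies on the opposite strand, in capitals. For 3 of them (Psmd14, Psma6 and Psmb1) the 160 bases just upstream of the start are given, a stretch that overlaps no annotated exon. Psmb10, the immunoproteasome gene with no excess of ChIP reads in either cell type, is given for comparison. It had few reads, which do not exclude an excess.
Psmd14 (chr2:61549591-61549750, plus strand): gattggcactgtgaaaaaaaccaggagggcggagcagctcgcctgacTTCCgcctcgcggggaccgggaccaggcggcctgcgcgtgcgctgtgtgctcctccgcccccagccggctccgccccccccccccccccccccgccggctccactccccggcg
Psma6 (chr12:56499602-56499761, plus strand): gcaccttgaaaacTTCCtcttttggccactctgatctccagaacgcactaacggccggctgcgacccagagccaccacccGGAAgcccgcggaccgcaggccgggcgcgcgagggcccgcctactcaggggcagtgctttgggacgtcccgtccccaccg
Psmb1 (chr17:15635241-15635400, minus strand): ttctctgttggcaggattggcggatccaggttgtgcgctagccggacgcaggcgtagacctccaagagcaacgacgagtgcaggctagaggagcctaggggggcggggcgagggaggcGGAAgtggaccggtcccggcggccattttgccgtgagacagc
Psmb10 (chr8:108462293-108462452, minus strand): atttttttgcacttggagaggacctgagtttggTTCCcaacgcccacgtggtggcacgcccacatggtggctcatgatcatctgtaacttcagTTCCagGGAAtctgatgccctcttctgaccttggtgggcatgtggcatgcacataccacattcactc

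The other 5 are shown by the 30 bases around the core nearest to the highest point of the ChIP reads of both cell types, a stretch that overlaps an exon in each. Psmc2 has a second line, for a core in an exon of its neighbour Dnajc2.
Psma5 (chr3:108059917-108059946, plus strand): aaccaagggtgacGGAAagcGGAAgtgctc
Psmc2 (chr5:21291073-21291102, plus strand): cgcggccgcctacTTCCtctgtgactctaa
Psmc2, upstream site (chr5:21290997-21291026, plus strand): gaccagtgagcacTTCCgggatggggctcg
Psmd7 (chr8:110112367-110112396, minus strand): gcgctctgggagcGGAAgtcgactgtgcag
Psmd12 (chr11:107340813-107340842, plus strand): atgagcgggcgacTTCCggtgcgagtgacg
Psmg4 (chr13:34254850-34254879, plus strand): aagtgaaagagcgTTCCgcttttcggagct

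ChIP reads were compared with input at each TSS by a two-sided exact binomial test on the reads of a cell type, with the input scaled to the depth of the ChIP. A TSS was called above input at an adjusted p below 0.05 over all protein-coding TSSs. This test covers counting error only, so the values of the preparations are given for the members described. In MEL cells 10 of the 50 members were called above input, 20%, against 10.7% of the other protein-coding TSSs. In ES-EP it was again 10 of 50 members, against 9.25% of the others. The members called in both cell types numbered 8, against 6.04% of the others, and 38 were called in neither. Both preparations lay above the scaled input at 30 of 50 members in MEL cells (49.4% of the other starts) and at 31 in ES-EP (42.6% of the others). No member was called below input, as were 0.257% (MEL) and 0.162% (ES-EP) of the other TSSs. The median log2 ratio of ChIP to scaled input over the members, with 0.5 reads added to both, was 1.08 in MEL cells and 0.84 in ES-EP, beside 0.94 and 0.31 at the other TSSs. Without preparation B the MEL median was 0.54 (0.29 at the other TSSs), without A 1.51 (1.08), and with median-ratio scaling 0.53 (0.41).

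The counts varied with the preparation left out. In MEL cells it was 4 of 50 members without preparation B (2.77% of the other TSSs) and 16 without A (16.7%), and in ES-EP 7 without A (4.03%) and 14 without B (12.9%). Without MEL preparation B the 4 that held were Psma5, Psmc2, Psmd14 and Psmg4, which left 4 members called in both cell types (2.32% of the others). The other 6 MEL calls were lost, with log2 ratios that went from 1.53 to 1.49 at Psma6 (adjusted p = 0.161, exact binomial test), from 2.66 to 2.04 at Psmb1 (0.139), from 1.51 to 0.85 at Psmb4 (0.672), from 1.85 to 1.5 at Psmd12 (0.377), from 2.17 to 1.41 at Psmd7 (0.482) and from 2.79 to 2.09 at Psmg1 (0.328). All 6 stayed above 0, with fewer reads behind them. Without ES-EP preparation A the log2 ratio went from 2.03 to 1.21 at Psma6 (0.0575), from 1.42 to 0.61 at Psmb3 (0.872) and from 1.81 to 1.66 at Psme1 (0.0836), and without B from 1.71 to 1.46 at Psmd12 (0.0882). With 1 ES-EP input library left out, Psmd12 and Psme1 (without the first) and Psmb1, Psmb3 and Psme1 (without the second) were not called. A call in 1 cell type alone does not show that the cell types differed, which was tested separately at the end.

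Much of this background differs from the members in base composition. A start was called CpG-rich here if its 500 bp had at least 55% G and C and at least 0.6 of the CpG dinucleotides expected from them. This held for 42 of the 50 members and for 10142 of the other 22169 starts. Among those 10142 CpG-rich starts, the called share was 21.7% for MEL cells, 17.5% for ES-EP and 12% for both at once. The CpG-rich members were called at 10 of 42 in MEL cells (23.8%) and at 9 of 42 in ES-EP (21.4%), shares close to those of CpG-rich starts in general. Called in both were 8 of 42 (19%), beside the 12% above. Both preparations lay above the scaled input at 28 of the 42 CpG-rich members in MEL cells and at 27 in ES-EP. At the other CpG-rich starts these were 7594 and 5374 of 10142, so the members' share was lower in MEL cells and higher in ES-EP. The median log2 ratio of the CpG-rich members was 1.35 in MEL cells and 0.88 in ES-EP, beside 1.46 and 0.47 at the other CpG-rich starts. Of the 8 members without CpG-rich sequence, 1 was called, Psme1 in ES-EP, beside 1.49% (MEL) and 2.26% (ES-EP) of the other starts of this kind. Psme1 lay just under the limit, with 0.579 of the expected CpG.

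Windows of 500 bp at every 500 bp within 2 kb of the start were examined after the values at the starts had been seen. At least 1 was above input at 10 of 50 members in MEL cells, beside 10.6% of the other genes and 19.6% of the CpG-rich ones. In ES-EP it was 12 of 50, beside 12.2% and 21.3%. Reads are also given as RPM, reads per 1000000 reads of the library or preparation.

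**Figure D1:**
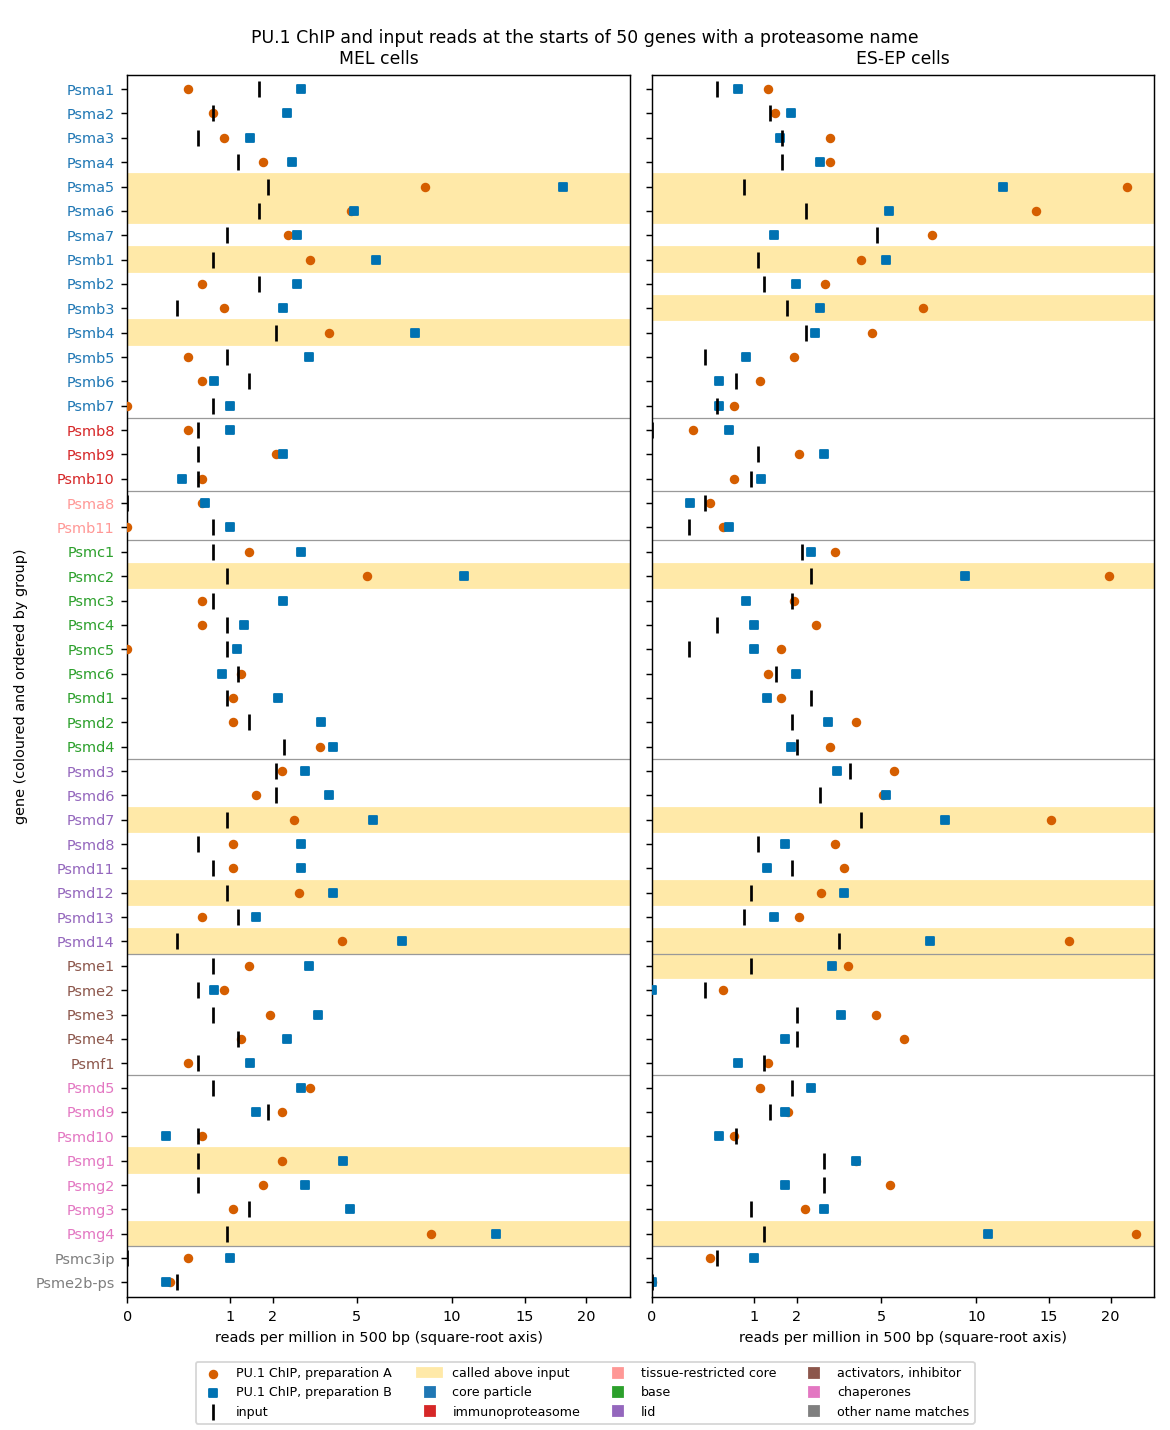
RPM in the 500 bp around each start (x axis, square-root scale) for the 50 members (rows, coloured by group) in MEL cells (left panel) and in ES-EP (panel on the right), with circles for preparation A, squares for B and black bars for input. Shaded rows were called above input, 10 in each cell type, and in all of them both preparations lie above the input.

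The core particle had 4 of 14 genes called in MEL cells (Psma5, Psma6, Psmb1 and Psmb4) and 4 in ES-EP (Psma5, Psma6, Psmb1 and Psmb3), with 3 in both. CpG-rich sequence was at 13 of the 14. Of the other CpG-rich starts 21.7% (MEL), 17.5% (ES-EP) and 12% (both) were called. Psma5, an alpha ring subunit, had the strongest excess. It had 48 and 126 reads in preparations A and B of MEL cells with 8 in the input, and 135 and 83 reads in ES-EP with 6 in the input. An exon of 1700010K24Rik overlaps the 160 bases upstream of the start, so the reads cannot be assigned to Psma5 alone. Every preparation stood far above the input, which put the ratio to scaled input at 7.34 in MEL cells (95% interval 3.64 to 17.3, adjusted p = 1.12e-11, exact binomial test) and at 20.3 in ES-EP (9.19 to 56.0, adjusted p = 1.06e-31). By this log2 ratio it ranked 117 of 22219 starts in ES-EP and 2930 in MEL cells. Such a rank does not weigh the number of reads. The gene Tap2, for example, ranked 959 in ES-EP on 3 ChIP reads with none in the input.

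Psma6, another alpha subunit, had 27 and 34 reads in MEL cells with 7 in the input (ratio 2.94, adjusted p = 0.0307) and 88 and 38 in ES-EP with 17 in the input (ratio 4.15, adjusted p = 4.60e-09). The 500 bp around the 5′-most annotated start of Psma6 were nearly empty, with 0 ChIP reads and 1 input read for MEL cells, against 3 and 2 for ES-EP. Psmb1, a beta subunit that does not cut, had 18 and 41 reads in MEL cells with 3 in the input, a ratio of 6.63 with a wide counting interval (2.16 to 33.1, adjusted p = 0.00110). In ES-EP it had 26 and 37 reads with 8 in the input (ratio 4.41, adjusted p = 9.81e-05). At Psmb1 the preparations of the 2 cell types were of similar height.

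The remaining 2 core genes were called in 1 cell type each. Psmb4, a beta subunit, had 22 and 55 reads in MEL cells with 9 in the input (ratio 2.89, adjusted p = 0.0134) and 29 and 18 in ES-EP with 17 in the input (ratio 1.55, adjusted p = 0.562). Its MEL call was lost with a window of 200 bp, with the first libraries alone and with median-ratio scaling. Psmb3, also a beta subunit, had 44 and 19 reads in ES-EP with 13 in the input (ratio 2.71, adjusted p = 0.00620), a call that was lost with a window of 200 bp (log2 ratio 0.72, adjusted p = 0.893) or 1000 bp (0.76, 0.154), with the first libraries alone (0.109) and with median-ratio scaling (0.135). In MEL cells it had 5 and 16 reads with 1 in the input, a ratio of 7.08 whose interval ran from 1.14 to 293 (adjusted p = 0.137), and passed without MEL preparation A (log2 ratio 2.95, adjusted p = 0.0295) and with the Poisson test (2.25e-05). The other 9 core genes were called in neither. Among the 3 lowest members in MEL cells was Psmb6, the precursor of the caspase-like cutting subunit, with 3 and 5 reads against 6 in the input (ratio 0.450, adjusted p = 0.402).

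None of the 3 immunoproteasome genes was called in either cell type. Psmb8 had 2 and 7 reads in MEL cells with 2 in the input (ratio 1.52, 0.314 to 14.4), and 1 and 4 reads in ES-EP with none in the input, where the floor of 3 input reads allows a ratio of at least 0.933 and so shows no excess. Psmb10 had 3 and 2 reads in MEL cells with 2 in the input (ratio 0.843, 0.138 to 8.86), and 4 and 8 in ES-EP with 7 in the input (ratio 0.959, 0.348 to 2.88). At these 2 genes a few reads decided every value, and the MEL intervals reach past several fold, so an excess of that size is not excluded. Psmb9 shares its promoter with Tap1, which encodes a subunit of the peptide transporter of the MHC class I pathway and has an annotated start 38 bp away on the opposite strand, while the Tap1 start used here is 211 bp away. It had 12 and 16 reads in MEL cells with 2 in the input (ratio 4.72, 1.19 to 40.9, adjusted p = 0.111) and 13 and 20 in ES-EP with 8 in the input (ratio 2.31, 1.05 to 5.79, adjusted p = 0.224). All 4 preparations of Psmb9 were above the input by RPM, and neither cell type passed the threshold. With the second libraries alone Psmb9 passed it in MEL cells (adjusted p = 0.0291), and with the Poisson test, which calls many more starts, in both (3.79e-10 in MEL cells, 0.000121 in ES-EP).

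Neither of the tissue-restricted core subunits was called. Psma8, an alpha subunit of the testis, had 3 and 4 reads in MEL cells with none in the input and 2 and 1 in ES-EP with 2 in the input. On these few reads Psma8 passed the Poisson test in MEL cells (adjusted p = 0.0294). Psmb11, a beta subunit of the thymic cortex, had 0 and 7 reads in MEL cells with 3 in the input and 3 and 4 in ES-EP with 1 in the input.

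All 9 genes of the base were CpG-rich, a kind of start called at 21.7% (MEL) and 17.5% (ES-EP) of the other genes. In the base 1 of 9 genes was called, Psmc2, an ATPase of the ring that unfolds substrates. It had 31 and 75 reads in MEL cells with 4 in the input (ratio 8.94, 3.39 to 33.4, adjusted p = 1.20e-07) and 125 and 66 in ES-EP with 18 in the input (ratio 5.94, 3.66 to 10.2, adjusted p = 1.10e-17). Its start lies 32 bp from an annotated start of Dnajc2, a chaperone gene on the opposite strand, so that the reads cannot be assigned to either gene. Psmc5, another ATPase of the ring, had few reads: 0 and 8 in MEL cells with 4 in the input, and 10 and 7 in ES-EP with 1 in the input, a ratio of 9.51 that 1 input read bounds only between 1.49 and 398 (adjusted p = 0.0550). Psmc5 passed the threshold in ES-EP with a window of 1000 bp (log2 ratio 3.16, adjusted p = 0.000351), the second libraries alone (0.0261), the start with the most reads (0.0483), the Poisson test (0.000273) and without preparation B (0.0287). At the start with the most reads its log2 ratio stayed at 2.94, so only the adjustment moved, over starts picked for their reads. Its highest 100 bp in ES-EP lay about 250 bp upstream, and the core nearest to the highest point of both cell types lies by an exon of the neighbour Ftsj3. The lowest ratios of ES-EP were also in the base. Psmd1, a scaffold that binds ubiquitin receptors, had 10 and 9 reads with 18 in the input (ratio 0.591, adjusted p = 0.522), and Psmc3, an ATPase, had 12 and 6 with 14 in the input (ratio 0.720, adjusted p = 0.814).

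In the lid 3 of 8 genes were called, all of them in both cell types. All 8 were CpG-rich, and of the other CpG-rich starts 21.7% (MEL), 17.5% (ES-EP) and 12% (both) were called. Groups this small were not compared with each other by a test. Psmd14, the metalloprotease that removes the ubiquitin chain, had 25 and 50 reads in MEL cells with 1 in the input and 104 and 52 in ES-EP with 25 in the input. The ratio was 25.3 in MEL cells, with an interval of 4.40 to 1012 around a single input read (adjusted p = 7.28e-07), and 3.49 in ES-EP (2.28 to 5.56, adjusted p = 1.92e-09). The ChIP reads were fewer in MEL cells while the ratio was larger, and the input was lower there by more than the ChIP.

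Psmd7, the partner of Psmd14, had 15 and 40 reads in MEL cells with 4 in the input (ratio 4.64, adjusted p = 0.00709) and 95 and 58 in ES-EP with 31 in the input (ratio 2.76, adjusted p = 5.61e-07). Psmd12, a scaffold subunit of the lid, had 16 and 28 reads in MEL cells with 4 in the input (ratio 3.71, adjusted p = 0.0392) and 17 and 25 in ES-EP with 7 in the input (ratio 3.36, adjusted p = 0.0172). In both cell types its call was lost with a window of 200 bp, with the first libraries alone and with median-ratio scaling. The remaining 5 lid genes had ratios from 0.944 to 4.38 in MEL cells and from 1.16 to 2.24 in ES-EP, and none was called.

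Of the 5 activators and inhibitors, which dock onto the end of the barrel, 1 was called, in ES-EP, beside 9.25% of all the other starts there. Psme1, a subunit of the interferon-inducible PA28 cap, had 23 and 22 reads in ES-EP with 7 in the input (ratio 3.60, adjusted p = 0.00597) and 8 and 22 in MEL cells with 3 in the input (ratio 3.37, 1.05 to 17.3, adjusted p = 0.199). Its ES-EP call was lost with the first libraries alone (log2 ratio 0.44), at the 5′-most start (1.31, adjusted p = 0.529), with a window of 200 bp (0.157) and with median-ratio scaling (0.0823), while in MEL cells it passed without preparation A (log2 ratio 2.06, adjusted p = 0.0373) and with the Poisson test (1.25e-07). Its partner Psme2 was near the bottom, with 5 reads in each MEL preparation, 3 and 0 in those of ES-EP, and 2 in either input.

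The assembly chaperones, which help the rings and the base to form, had 2 of 7 genes called in MEL cells and 1 in ES-EP. CpG-rich sequence was at 6 of the 7, and of the other CpG-rich starts 21.7% (MEL) and 17.5% (ES-EP) were called. Psmg4, which pairs with Psmg3 on the alpha ring, had 50 and 90 reads in MEL cells with 4 in the input (ratio 11.8, 4.51 to 43.9, adjusted p = 3.85e-11) and 140 and 76 in ES-EP with 9 in the input (ratio 13.4, 6.95 to 29.8, adjusted p = 2.02e-28). Psmg1, which acts with Psmg2, had 13 and 31 reads in MEL cells with 2 in the input (ratio 7.42, 1.94 to 63.2, adjusted p = 0.00728), and in ES-EP 25 and 28 with 21 in the input (ratio 1.41, 0.838 to 2.47, adjusted p = 0.706). With the Poisson test Psmg1 passed in ES-EP too (adjusted p = 0.0429). Here too the cell types differed in the input more than in the ChIP. Psmd10, a chaperone of the base also known as gankyrin, was at the low end in both, with 3 and 1 reads in MEL cells (2 in the input) and 4 and 3 in ES-EP (5 in the input).

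The 2 genes that match the name pattern alone were not called. Psmc3ip, a recombination factor of meiosis named for its binding to Psmc3, had 2 and 7 reads in both cell types with 0 (MEL) and 3 (ES-EP) in the input. Psme2b-ps, a copy of Psme2, had 1 read in each MEL preparation and none in ES-EP, and reads from such copies can be lost where only unique alignments are kept.

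**Figure D2:**
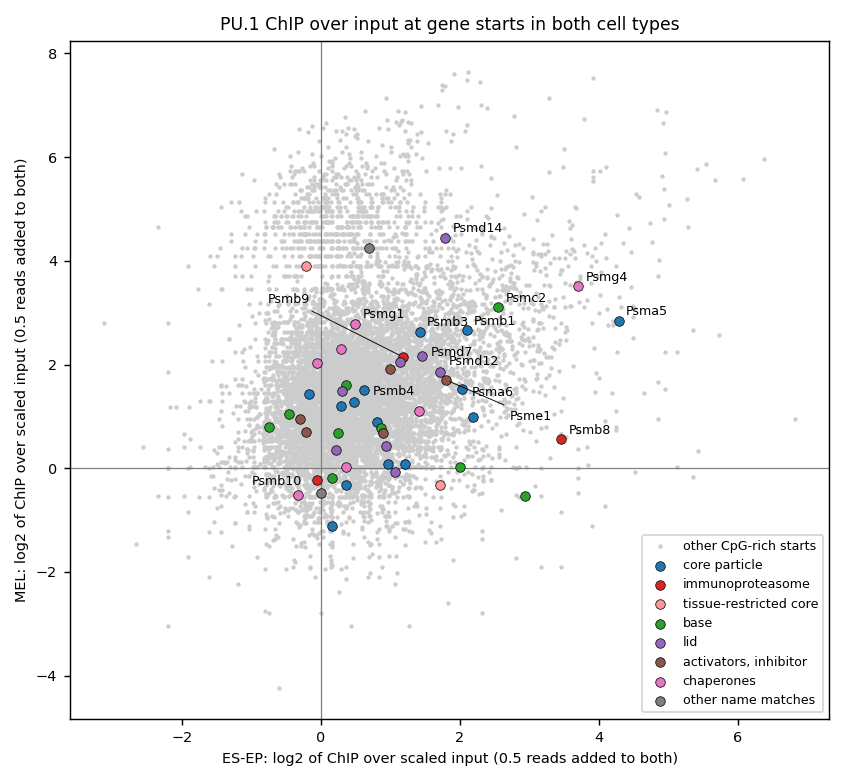
Log2 ratio of ChIP to depth-scaled input, with 0.5 reads added to both, in ES-EP (x axis) and MEL cells (y axis) for the 50 members (coloured by group) and the 10142 other CpG-rich starts (grey). Psmg4 and Psma5 have the highest ES-EP values of the members, and Psmb8 rests there on 1 and 4 reads with none in the input.

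The list of other genes of the ubiquitin and proteasome pathway, drawn up apart from the name pattern, had 23 genes, with 7 called above input in each cell type (30.4%) and 6 of these in both. CpG-rich sequence was at 20 of the 23, and the shares of other CpG-rich starts were 21.7% (MEL), 17.5% (ES-EP) and 12% (both). The 6 were Adrm1 and Uchl5, a ubiquitin receptor of the base and the deubiquitinase it binds, Pomp, the chaperone of core maturation, Ubqln1, a shuttle of ubiquitinated proteins, Txnl1, a thioredoxin of the regulatory particle, and AI314180, the mouse Ecm29 scaffold. Adrm1 had 36 and 58 reads in MEL cells with 6 in the input (ratio 5.28), but in ES-EP 125 and 35 with 37 in the input (ratio 2.42), where preparation B was level with the input (4.93 and 4.94 RPM) and the call rests on A. Uchl5 had 14 and 29 reads in MEL cells with none in the input, at least 4.83 times the floor of 3 input reads, and in ES-EP 55 and 34 with 19 in the input (ratio 2.62). At Txnl1 and AI314180 both preparations of each cell type were above the input. Ubqln1 had 36 and 103 reads in MEL cells with 13 in the input (ratio 3.61) and 102 and 51 in ES-EP with 38 in the input (ratio 2.25). Pomp had 25 and 66 in MEL cells with 6 in the input (ratio 5.12) and 55 and 40 in ES-EP with 17 in the input (ratio 3.13). Ddi2, a protease that activates Nfe2l1, was called in MEL cells only (15 and 34 reads with 4 in the input, ratio 4.13, adjusted p = 0.0241), and Nfe2l1, the transcription factor of the proteasome genes, in ES-EP only (37 and 17 reads with 11 in the input, ratio 2.75, adjusted p = 0.0134). Vcp, the segregase that extracts substrates, was called below input in MEL cells, with 2 and 2 reads against 9 in the input (ratio 0.150, adjusted p = 0.0132), as were 0.257% of the other starts. In ES-EP it had 10 and 4 reads with 2 in the input (ratio 3.92, 0.900 to 35.5, adjusted p = 0.352). Tap1 and Tap2, which neighbour the immunoproteasome genes, were called in neither.

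The place of the reads was described at the 8 members called in both cell types. In 50 bp bins averaged over the 8 members called in both cell types, the ChIP RPM per gene reached 1.12 and 1.48 in the MEL preparations and 2.72 and 1.51 in those of ES-EP (A before B), all between 50 bp before and 99 bp after the start. These members were chosen for their reads at the start, so both this height and its place near the start follow from the choice. At Psmd13, which was not called, the highest 100 bp lay 420 bp downstream in MEL cells (69 reads). In ES-EP they lay 410 bp downstream (170 reads). At the other 42 members the highest bins were 0.171 to 0.402. The input was itself denser near the start than beyond 500 bp from it, by 7.37 times (MEL) and 12.3 times (ES-EP) in its highest bin at the 8 members.

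Within these 8 genes, Psmd12 apart, the highest point of the summed reads, in sliding windows of 100 bp, fell at nearly the same place in both cell types. It lay 80 and 90 bp downstream of the start at Psma5 (MEL cells and ES-EP), 70 bp upstream in both at Psma6, 40 and 50 bp upstream at Psmb1, 60 and 50 bp upstream at Psmc2, 100 and 80 bp upstream at Psmd14, and 10 and 30 bp downstream at Psmd7. Psmg4 had it 70 and 55 bp downstream. By preparation, the MEL point of Psmd7 lay 110 bp downstream in A (8 reads) and 10 bp in B (23 reads). At Psmd12, the least covered of the 8, the points were 142.5 bp apart. With the cell types together, the nearest GGAA core on either strand lay 7.5 to 11.5 bp from the highest point, measured to the middle of the core, at Psma5, Psma6, Psmb1, Psmd7, Psmd12 and Psmd14, and 36.5 and 33.5 bp from it at Psmc2 and Psmg4. Such a distance was not confined to the 8, other protein-coding starts were not measured, and no difference was tested. The cut of 12 bp used next lies just above the 11.5 bp given here, so the count among the 8 follows from it. A core lay within 12 bp at 6 of these 8, with a median of 10 bp, and at 12 of 40 other members examined. At those 40 it ranged from 0.5 to 159.5 bp with a median of 26.5 bp, and many of their highest points rest on few reads.

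**Figure D3:**
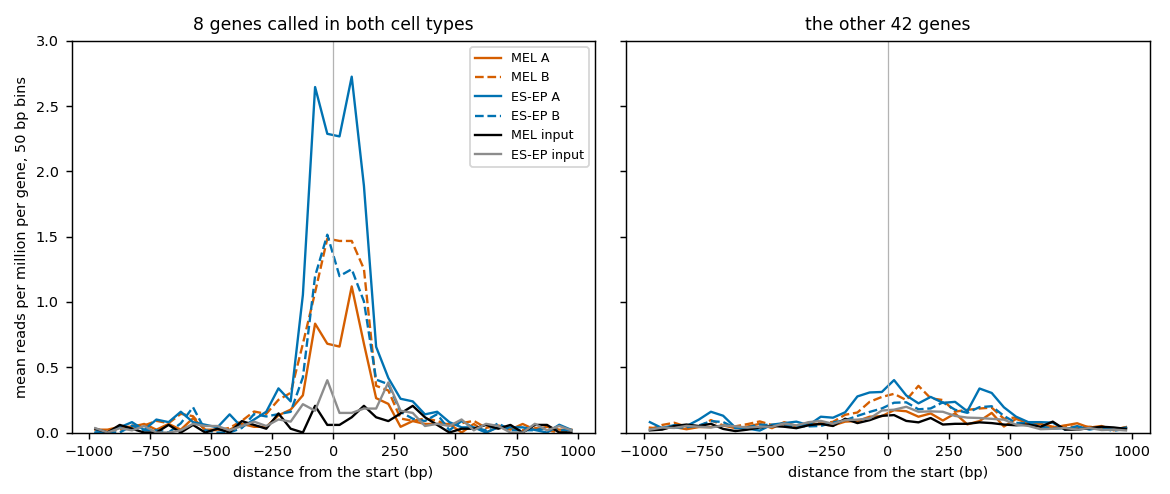
Mean ChIP and input RPM per gene in 50 bp bins by distance from the start, for the 8 members called in both cell types (left) and the other 42 (right), with 1 line for each preparation (A solid, B dashed) and each input. On the left the 4 ChIP lines peak within about 100 bp of the start at 1.12 to 2.72, and on the right they stay at or below 0.402.

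The letters around the start were counted in a window from 250 bases before to 49 after it, on both strands. GGAAGT, a core with the 2 letters that follow it in many Ets sites, was searched after the sequences above had been seen. It was in 24 of 50 members (48.0%), beside 24.2% of all starts and 25.2% of the other CpG-rich starts. It was in 6 of the 8 members called in both cell types and in 17 of the 38 called in neither. The window ends before the stretch of Psma5 printed above, which holds the word close to the highest point of the reads, so Psma5 is counted as without it. Of the other CpG-rich starts it was in 56.0% of those called in both and in 18.9% of those called in neither. CCGGAAGT, an extended form typical of the broadly expressed Ets factors, was in 8 of 50 members (16%), beside 4.84% of all starts and 8.64% of the other CpG-rich starts. These 8 were Psma8, Psmc1, Psmc2, Psmd6, Psmd12, Psme3, Psme4 and Psmg3, of which Psmc2 and Psmd12 were called in both cell types and the other 6 in neither. Among the other CpG-rich starts CCGGAAGT was in 15.8% of those called in both and in 6.44% of those called in neither.

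GAGGAAGT, the form closest to the site of PU.1, was in 3 of 50 members, beside 3.03% of all starts. It lay 149 to 142 bases upstream of the start of Psma6, 17 to 10 upstream at Psmc2 and 105 to 98 upstream at Psmc1, and the first 2 of these genes were called in both cell types. Of the other CpG-rich starts GAGGAAGT was in 7.62% of those called in both and in 1.15% of those called in neither. At Psma6 the highest point of the reads, 70 bp upstream, was not at this word but by the GGAA core that begins 80 bases upstream. Psmc1 and Psmc2, both ATPase genes, held both long words. Psmc1 had 8 and 20 reads in MEL cells with 3 in the input and 20 and 17 in ES-EP with 16 in the input. Psmc1 was called in neither cell type, while Psmc2 was called in both. Both long words contain GGAAGT and are counted under it too. Of the words of other factors, CCAAT was in 36.0% of members and 37.5% of all starts, TGACNNNGC, the core of the site of Nfe2l1 and its relatives, in 14.0% and 12.6%, and GGGCGG, the GC box, in 60.0% and 44.8%, with 76.5% of the other CpG-rich starts. The plain core GGAA was in 49 of 50 members and in 95.4% of all starts.

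Of the 50 members, 9 had the start of another protein-coding gene within 500 bp, and 1 of these 9, Psmc2, was called, in both cell types. Of the other genes with such a neighbour 20.8% (MEL) and 21.6% (ES-EP) were called. The other 41 members had 9 calls in each cell type (22%), beside 9.67% and 7.97% of the other genes without a neighbour. These sets differ in base composition, with CpG-rich sequence at 82.9% of the 41 members and 42.5% of those other genes. Of all other CpG-rich starts 21.7% (MEL) and 17.5% (ES-EP) were called.

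MEL cells and ES-EP were then compared on the ChIP reads alone, over the 2 preparations of each, by limma with voom weights across all 22219 starts. No member passed an adjusted p of 0.05 (lowest 0.791), and none of all the starts did (0.0% of them). At an unadjusted p below 0.05 there was 1 member, Psme2, beside 5.76% of all starts. With median-ratio scaling 1.04% of all starts passed, and with a minimum of 20 reads 3 of 10861, none of them a member. The median log2 fold change of MEL cells over ES-EP was -0.40 over the members and -0.22 over all starts. Over the CpG-rich members it was -0.39, and over the other CpG-rich starts -0.51. Median-ratio scaling moved the medians of the members and of all starts to -0.03 and 0.15. The members' median also turned to 0.05 without MEL preparation A and was -0.93 without MEL B, so it has no stable direction. With 2 preparations a side, these values do not show that the cell types were alike.

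The preparations of a cell type differed from each other. Across all starts the median-ratio size factor relative to depth was 0.674 in MEL A and 1.17 in MEL B, and 1.36 in ES-EP A and 0.983 in ES-EP B. The median over the members was 1.05 and 2.72 RPM in MEL A and B, while ES-EP A had 2.78 and ES-EP B 1.76. Beside this spread, 10 members were higher in both ES-EP preparations than in both MEL preparations (beside 19.3% of the other starts) and 5 the other way (beside 12.1%). The 10 were Psma3, Psma4, Psma6, Psmb3, Psmb10, Psmc6, Psmd3, Psmd6, Psmd7 and Psmd14, and the 5 were Psma8, Psmd4, Psmd5, Psme2 and Psme2b-ps. Among the 42 CpG-rich members these counts were 9 and 3, and among the 10142 other CpG-rich starts 2854 and 620.

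The 3 members with the largest differences on either side were mostly low in reads. Psme2 had 0.878 and 0.716 RPM in MEL cells, against 0.477 and 0 in ES-EP, a log2 fold change of 2.15 ± 0.95 (SE, adjusted p = 0.791). Psme2b-ps followed with 1.66 ± 0.95 and Psma8 with 1.14 ± 0.80. Psmc5 was at the other end, with 0 and 1.14 RPM in MEL cells, against 1.59 and 0.986 in ES-EP, a log2 fold change of -1.89 ± 0.99 (adjusted p = 0.791). Psmb3 had -1.55 ± 0.72 and Psmd7 -1.52 ± 0.73. Psmd7 was the best covered among them, with 2.63 and 5.72 RPM in MEL cells, against 15.1 and 8.17 in ES-EP, groups that did not overlap. Of the members with the strongest excess, Psma5 (-0.38 ± 0.78) and Psmg4 (-0.55 ± 0.76) were near the middle, while Psmc2 (-0.84 ± 0.76) and Psmd14 (-0.98 ± 0.73) lay toward the ES-EP side. The immunoproteasome genes had 0.82 ± 0.82 (Psmb8), -0.13 ± 0.60 (Psmb9) and -1.02 ± 0.72 (Psmb10).

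**Figure D4:**
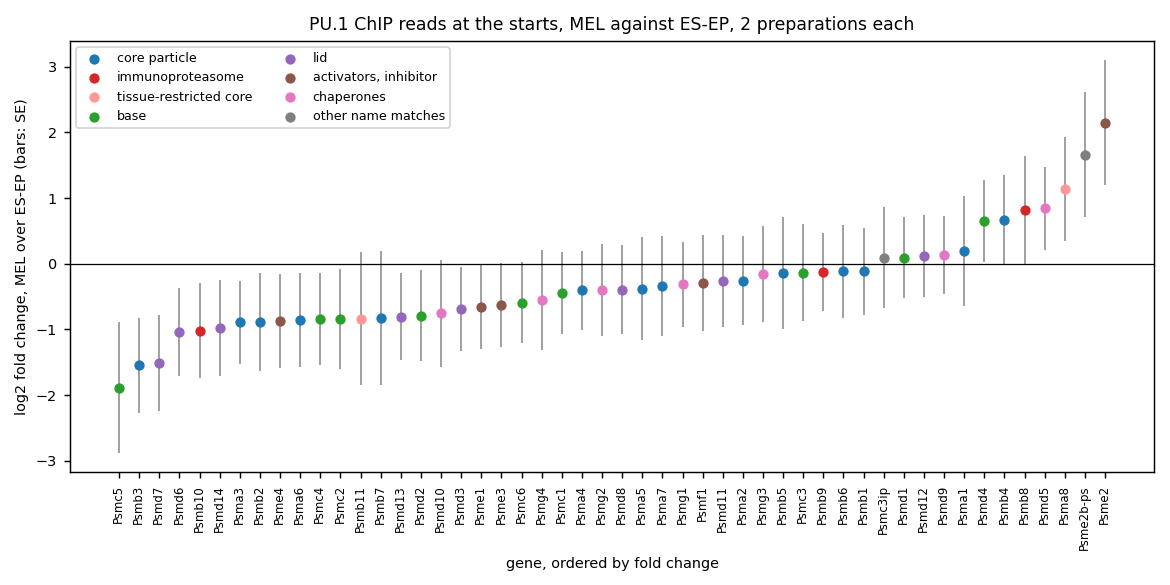
Log2 fold change of ChIP reads at the start, MEL cells over ES-EP, for the 50 members in order, with bars of 1 standard error from limma over 2 preparations in each cell type. Values run from -1.89 (Psmc5) to 2.15 (Psme2), 38 of 50 (76%) lie below 0, as do 57.3% of the other starts and 75.6% of the CpG-rich ones, with a median near 0 under median-ratio scaling, and none passed an adjusted p of 0.05.

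The inputs of the 2 cell types were also unequal in places. At the members the input had a median of 0.818 RPM in MEL cells and 1.27 in ES-EP, beside 0.467 and 0.534 at the other starts. It was 0.935 and 1.60 at the CpG-rich members, beside 0.701 and 1.74 at the other CpG-rich starts. By chromosome, the MEL input relative to that of ES-EP, over the median of the autosomes, was 1.33 on chromosome 3 (with Psma5, Psmb4 and Psmd4), 0.732 on chromosome 8 (with Psmd7 and Psmb10) and 1.56 on the X chromosome (with Psmd10). When the log2 ratios of ChIP to scaled input were compared in place of the ChIP reads, none of the 50 members passed either (lowest adjusted p = 0.0981), and the median over the members went from -0.40 to 0.12, beside 0.39 over all starts.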

How the data were processed

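PU.1 ChIP and input libraries of MEL cells and ES-EP were read from the deposited lists of alignments, 1 read per line with no measured value or score, so every count is a count of lines made here. The authors sequenced on an Illumina GAII, mapped with ELAND to mm9 and kept unique alignments. Reads of 27 bases (28 in the MEL input) were compared with NCBIM37, the same assembly, and at least 99.95% of 2000 per library matched with up to 2 mismatches. Reads were shifted by 70 bp (MEL) or 65 bp (ES-EP). The TSS of a gene was that of its protein-coding transcript with the longest coding sequence in GENCODE, with records of 1 symbol joined. Sequences came from NCBIM37.

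Totals of reads on chromosomes 1 to 19, X and Y set the depth, intervals are exact at 95%, and both cover counting error only. Repeated positions, 1.59% to 9.00% of a library, were kept. Adjustment was by Benjamini-Hochberg. Tools were Python 3.11.15, scipy 1.17.1, R 4.3.3 and limma 3.58.1. Both tests were run on simulated data without the differences in size factor between the real preparations, so the runs do not measure their power at that spread. The letters A and B were not used as pairs. Count models were not run on lines of alignments.

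The members, lists and tests were chosen with earlier results of these data known. Named were the immunoproteasome genes, the 6 highest called and 3 lowest ratios in each cell type, the 3 largest fold changes on each side, and Psma8, Psmb11 and Psmc3ip. Psmb4, Psmd12 and Psmc1 were added after their values were seen, as were the pathway genes printed with values. Alternatives are in the closing section.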

Additional observations from a re-analysis of the deposited data

Results flagged for a closer look

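In 3 places 1 library, or 1 cell type, stood apart. Among 25 members examined in 50 groups of 4 libraries (about 1 group in 20 is set apart by chance), library B2 of MEL cells had 7.76 RPM at Psmd7 with the other 3 between 2.43 and 2.74, and library B1 of ES-EP had 0.443 at Psmd1 with the other 3 between 1.53 and 1.70. Without MEL preparation B the call of Psmd7 in MEL cells was lost (log2 ratio 1.41, adjusted p = 0.482). The B1 value at Psmd1 rests on 1 read, where the other ES-EP libraries held 4, 6 and 8. Psmd1 also had both MEL preparations above the input and both ES-EP preparations below it, with log2 ratios that differ by 1.54. This difference was not tested on its own. By ChIP alone the cell types overlapped: MEL A had 1.05 RPM, MEL B 2.15, with ES-EP A (1.59) and ES-EP B (1.27) between them. The MEL input was the lower one, at 0.935 RPM (4 reads) against 2.40 RPM (18 reads).

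Windows of 500 bp placed every 500 bp within 2 kb of each start were examined after the values at the starts had been seen, with the exact binomial test adjusted over all 199971 windows. At least 1 window was called for 10 of 50 members in MEL cells (10.6% of the other genes) and for 12 in ES-EP (12.2%). In each cell type 3 members had a call away from a start that was not itself called, beside 3.39% (MEL) and 4.74% (ES-EP) of the other genes and 5.09% and 7.07% of the CpG-rich ones. With 3 of 50, the members are near these shares. They were 4 genes in all. Psmd13, a lid subunit, had it 500 bp downstream, with 31 and 62 reads in MEL cells (ratio 6.27, 5 in the input) and 142 and 65 in ES-EP (ratio 11.6, 10 in the input). Psmc3 had it 2000 bp upstream, with 20 and 47 reads in MEL cells (ratio 7.53, 3 in the input) and 32 and 21 in ES-EP (ratio 9.89, 3 in the input). Psme2 had it 500 bp upstream in ES-EP, with 59 and 28 reads and 2 in the input (ratio 24.3), and 9 and 35 reads in MEL cells. The start of Rnf31 lies 621 bp from that of Psme2. Psma7, an alpha subunit, had it 500 bp downstream in MEL cells, with 12 and 17 reads and none in the input, where the floor of 3 reads gives a ratio of at least 3.26.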

How the results depend on the processing

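The counts of members called above input are given with the share of the other starts in brackets. In MEL cells the count was 10 as reported (10.7%), 6 with the first libraries alone (6.25%), 32 with a Poisson test against local input (37.8%), 4 with median-ratio scaling (3.77%), and 4 to 16 with 1 preparation left out. In ES-EP it was 10 as reported (9.25%), 6 with the first libraries alone (4.64%) and 26 with the Poisson test (22.2%), and 7 to 14 with a preparation left out. With any window within 2 kb, an alternative chosen after seeing the data, the counts were 10 (10.6%) and 12 (12.2%). The MEL median log2 ratio was 0.54 to 1.51 with a preparation left out. The ES-EP median log2 ratio is given with that of the other starts in brackets. It was 0.51 with a window of 1000 bp (0.31), 0.48 with the first libraries (0.0) and 0.50 with median-ratio scaling (0.0). With a preparation or input library left out it was 0.62 to 1.21, the lowest without preparation A (0.07) and the highest without the second input library (0.94). At the 5′-most start Psma6 had log2 ratios of -2.79 (MEL, 0 ChIP reads and 1 input read) and -0.22 (ES-EP, 3 and 2), which the 0.5 reads added to both set and which are no reversal. In MEL cells a window of 200 bp lost the calls of Psmd14 (log2 ratio 3.09, adjusted p = 0.0505, exact binomial test) and Psmg1 (2.49, 0.346). A window of 1000 bp lost that of Psma6 (1.20, 0.0516). The first libraries lost those of Psma6 (1.37, 0.179) and Psmd7 (1.33, 0.392). Median-ratio scaling lost those of Psma6 (0.97), Psmb1 (2.12), Psmd7 (1.62) and Psmg1 (2.26), with adjusted p from 0.0593 to 0.437. Psmb4 and Psmd12 also lost their MEL calls with 200 bp, the first libraries and median-ratio scaling, where 6, 6 and 4 of the 10 held. In ES-EP Psmd7 lost its call with the first libraries (0.90, 0.157). Psmd12 lost its ES-EP call with 200 bp, 1000 bp, the first libraries, the start with the most reads and median-ratio scaling. The causes of these changes were not tested.

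All starts that differ between MEL cells and ES-EP numbered 0 as reported, 134 with each library as a sample, 230 with median-ratio scaling, 2 and 3 with a minimum of 10 and 20 reads, 0 to 1 with a preparation left out, and 2 with the letter as a replicate block. The pairing had little ground, since the letters of ES-EP come from the sample titles, while its deposited alignments carry other letters, with a correlation of -0.0798 between the deviations of the A preparations. The members that differ numbered 0 in all 18 alternatives, and their median log2 fold change was -0.93 to 0.05 with a preparation left out, -0.43 with the block and 0.12 with the input adjusted. Of 404 fold changes of named genes under an alternative, 50 changed sign, none of them past the threshold. Depth limits the members with few reads: 10 of 50 had under 20 ChIP reads in all.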
